A study of Rattus norvegicus with 241 samples.

Results

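The insulin-like growth factor (IGF) genes described here were the ligands IGF1 and IGF2, the receptors IGF1R and IGF2R, and the binding proteins IGFBP2 to IGFBP7. They were chosen by symbol, ignoring case, in every bulk and single-cell table of the series, and made up 10 of the 16820 genes named in any bulk table. All 10 were listed in each of the 16 sets of bulk libraries and in the 3 single-cell data sets.

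The series measured RNA in mammary glands of female rats given the TGFβ receptor inhibitor LY2157299 (galunisertib, called TGFBRi below) or vehicle. It held 241 libraries: 202 bulk libraries of sorted cells from 68 rats, 30 single-cell libraries of sorted cells and 9 of whole glands. TGFBRi was given by gavage at 75 mg/kg, 2 times a day for 10 days, or for 21 days in the rats of the estradiol (E2) model, with or without an E2 pellet. Fractions were sorted as CD24+CD29high basal cells, CD24+CD29low luminal cells and CD45+ leukocytes, and, in tumors, EPCAM+ and CD45+ cells.

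Young virgin ACI rats, an inbred strain in which estrogen induces mammary tumors, were first dosed on day 35 of age and sampled 0, 7 or 14 days after the last dose, with 3 rats in each arm. Young virgin Sprague-Dawley (SD) rats, an outbred strain, were first dosed on day 24 and sampled on day 0, with 4 rats in each arm for bulk RNA. Adult ACI rats of 18 to 24 weeks, virgin or parous, were sampled on day 0, with 4 rats in each arm except in CD45+ cells (2 to 4). Virgin SD rats of the carcinogen model were first dosed on day 21, were injected with N-nitroso-N-methylurea (NMU) at 50 mg/kg and were sampled on day 87, with 3 rats each for tumor-bearing vehicle, tumor-bearing TGFBRi and tumor-free TGFBRi, and tumors came from 3 rats in each arm. Virgin ACI rats of the estrogen model were first dosed on day 38, were given either a 37 mg E2 pellet or an empty implant (no E2 below) after 21 days of dosing, and were sampled once tumors had developed, at times that their labels call variable. All 4 vehicle rats with E2 carried tumors, as did 2 TGFBRi rats with E2, whereas 4 TGFBRi rats with E2, 4 vehicle rats without E2 and 3 TGFBRi rats without E2 were tumor-free. Thus, in vehicle rats, E2 and the presence of a tumor cannot be told apart. The single-cell libraries were from young virgin rats at day 0: 3 vehicle and 3 TGFBRi ACI rats (sorted basal and luminal cells), and 3 vehicle and 6 TGFBRi SD rats (sorted cells, and whole glands).

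IGF1 and IGF2 are secreted growth factors that signal through the tyrosine kinase IGF1R, which acts on the PI3K-AKT-mTOR and MAPK pathways through the adaptors IRS1 and IRS2. IGF2R, the mannose 6-phosphate receptor, binds IGF2 and carries it to lysosomes. The binding proteins hold IGFs in the extracellular fluid and can either block them or, after cleavage by proteases such as PAPPA, release them. IGFBP7 is a low-affinity relative abundant in vessels. In the mammary gland, IGF1 made by the stroma mediates the effect of growth hormone on ductal growth, and IGFBP5 is best known for its rise when the gland involutes after lactation.

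IGFBP2 and IGFBP5 are neighbours on rat chromosome 9, transcribed towards each other and 9425 bases apart in the GRCr8 assembly. The 250 bases before an annotated transcript start are printed for 4 of the binding protein genes. For IGFBP7 this start lies inside the annotated gene, so the last bases of its window are part of the gene. The sequences are from RefSeq on GRCr8, on the strand of the gene, and capitals mark matches to a GC box (GGGCGG) or a TATA box (TATAAA), searched on both strands.
IGFBP2, chr9:81864561-81864810, + strand: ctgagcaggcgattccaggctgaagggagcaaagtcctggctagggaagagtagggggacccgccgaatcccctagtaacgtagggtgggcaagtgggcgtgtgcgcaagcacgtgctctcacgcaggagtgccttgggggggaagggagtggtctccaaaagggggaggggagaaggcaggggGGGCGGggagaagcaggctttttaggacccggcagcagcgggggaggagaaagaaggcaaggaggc
IGFBP4, chr10:84491221-84491470, + strand: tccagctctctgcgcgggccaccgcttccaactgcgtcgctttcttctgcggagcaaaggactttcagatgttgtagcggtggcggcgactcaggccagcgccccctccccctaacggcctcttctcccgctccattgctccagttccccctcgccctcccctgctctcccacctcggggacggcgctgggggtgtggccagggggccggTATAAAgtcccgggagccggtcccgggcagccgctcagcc
IGFBP5, chr9:81914188-81914437, - strand: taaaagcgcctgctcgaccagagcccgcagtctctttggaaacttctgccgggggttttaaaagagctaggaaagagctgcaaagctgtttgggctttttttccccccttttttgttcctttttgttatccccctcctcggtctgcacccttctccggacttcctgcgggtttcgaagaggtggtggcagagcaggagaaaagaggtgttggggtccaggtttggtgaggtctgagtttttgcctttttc
IGFBP7, chr14:31091486-31091735, + strand: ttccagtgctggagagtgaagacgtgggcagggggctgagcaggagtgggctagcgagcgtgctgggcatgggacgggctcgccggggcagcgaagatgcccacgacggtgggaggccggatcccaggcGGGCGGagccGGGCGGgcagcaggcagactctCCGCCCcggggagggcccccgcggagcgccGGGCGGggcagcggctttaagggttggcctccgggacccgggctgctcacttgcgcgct
The IGFBP2 promoter held 1 GC box, IGFBP7 held 4, IGFBP4 held 1 TATA box and IGFBP5 held neither. Of 33469 rat promoters of the same length, 30.5% held GGGCGG and 12.9% held TATAAA. Matches to the SMAD element CAGACA (17.2% of promoters) and to the AGGTCA element of estrogen receptors (14.1%) were absent from all 4 windows. A match or its absence describes these letters only.

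Bulk values are reads per gene divided by a size factor per library (normalized read counts below). Sequencing depth was 4194912 to 52314784 reads on genes per library, with a median of 20100223. Differences are on the log2(normalized read count + 1) scale with their standard error (SE), tested with limma and called at an adjusted p of at most 0.05 over all genes, with 10 members tested in each bulk comparison. Each replicate was a different rat. 1 SD vehicle luminal library, of rat C6N, carried basal keratin and actin markers (7 genes, summed level 64465 against 4487 at the lowest of the 4 rats), and the results that rest on it are given with that rat named.

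First, the basal and luminal fractions of vehicle rats at day 0 were compared. IGF1, IGFBP2, IGFBP3, IGFBP4 and IGFBP7 were higher in basal than in luminal cells in both strains, and IGF1R was also higher in basal cells of SD rats. No member passed in the luminal direction in this fit, which did not pair the fractions by rat. In ACI rats 5 of 10 members were called, where 12.4% of all genes were called higher in basal cells, and the median log2 difference was 2.36 over the members and 0.21 over all genes. In SD rats 6 of 10 were called, against 26.9% of all genes, with medians of 2.31 and 0.13. With the rat as a block, since both fractions came from the same rats, 7 members and 5472 genes were called in ACI rats, instead of 5 and 3241, and 6 members in SD rats.

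IGFBP2, a binding protein that prefers IGF2 as ligand, showed the widest separation. In ACI rats LD3L, LD3R and LD4R its normalized read count was 52240, 64085 and 42990 in basal cells, whereas luminal cells of the same rats had 36, 19.7 and 59.7. The log2 difference was 10.51 (SE 0.87, adjusted p = 3.61e-10). In SD rats C6N, C6R, C7N and C7R, basal cells had 41136, 35044, 37294 and 40060, and luminal cells had 16861, 161, 509 and 92.3. All basal libraries lay above all luminal ones, although C6N luminal cells stood far above the other 3, and the log2 difference was 5.99 (SE 1.10, adjusted p = 0.000224).

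IGFBP4, a binding protein that inhibits IGF action and is cleaved by PAPPA, was 3987, 3429 and 3625 in ACI basal cells and 170, 173 and 159 in ACI luminal cells. The log2 difference was 4.45 (SE 0.48, adjusted p = 3.33e-08). In SD rats it was 7498, 5314, 4917 and 4848 in basal cells, against 2824, 607, 803 and 490 in luminal cells (log2 difference 2.61, SE 0.48, adjusted p = 0.000204). The fractions did not overlap in either strain.

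IGFBP3, the main carrier of IGFs in serum, was 2010, 1899 and 2229 in ACI basal cells and 81.5, 112 and 381 in luminal cells (log2 difference 3.74, SE 0.76, adjusted p = 0.000423). SD basal cells had 2801, 2386, 1708 and 3296 and luminal cells 307, 75.0, 45.8 and 82.2 (log2 difference 4.66, SE 0.58, adjusted p = 4.62e-06). IGFBP7 was 3237, 2851 and 6357 in ACI basal cells against 259, 260 and 479 in luminal cells (log2 difference 3.61, SE 0.76, adjusted p = 0.000685). These 2 genes were thus higher in every basal library, and for IGFBP7 the same held in SD rats, where basal cells had 6143, 4147, 4486 and 5535 and luminal cells 3778, 621, 1472 and 688 (log2 difference 2.01, SE 0.57, adjusted p = 0.00717). Without rat C7R the SD difference of IGFBP7 was 1.68 (adjusted p = 0.0514).

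The ligand IGF1 was 143, 117 and 146 in ACI basal cells and 18.8, 19 and 64.7 in luminal cells. The log2 difference of 2.19 (SE 0.79, adjusted p = 0.0465) was close to the threshold and was lost without any 1 of these 3 rats (adjusted p = 0.0624 to 0.267), with edgeR (0.0887) or without any 1 of 7 other rats of the fit, LD16NP, LD5R, LD6R, LD7L, LD7R, LD9L and LD9R (0.0508 to 0.0584). In SD rats it was 428, 322, 298 and 574 against 95.9, 22, 9.71 and 16.2 (log2 difference 3.96, SE 0.64, adjusted p = 7.37e-05).

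IGF1R, the signalling receptor, had 1548, 1503, 1402 and 1902 in SD basal cells against 154, 304, 99.9 and 502 in luminal cells (log2 difference 2.83, SE 0.54, adjusted p = 0.000289). In ACI rats its basal values were 2458, 2347 and 1831 and its luminal values 1300, 999 and 872, which did not overlap but gave a log2 difference of 1.07 (SE 0.96) that was not called. IGF2R, IGFBP5, IGFBP6 and IGF2 were not called in either strain in the fit without the rat as a block. IGFBP5 was 4893 to 6794 in ACI basal and 6878 to 13525 in ACI luminal cells, and IGF2 was at most 61.1 in the epithelial fractions of these young vehicle rats except luminal cells of C6N (153).

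The fibroblast list (7 genes, 6 listed in these tables) also moved with the fractions: its summed level was 54276 to 127656 in ACI basal and 10951 to 22543 in ACI luminal cells, and 371683 to 594870 against 5159 to 19849 in SD rats. The part of stromal RNA in the basal values was not tested. Of the other genes of the IGF pathway (a fixed list), 6 of 38 were called higher and 4 lower in ACI basal cells. PAPPA, the protease that cleaves IGFBP4, had a log2 difference of 4.65, the adaptor IRS1 had 3.82, and STC2, an inhibitor of PAPPA, had -4.35. In SD rats 13 of 36 were higher and 7 lower, with 4.55 for PAPPA, 4.59 for IRS1 and -3.19 for STC2.

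**Figure D1:**
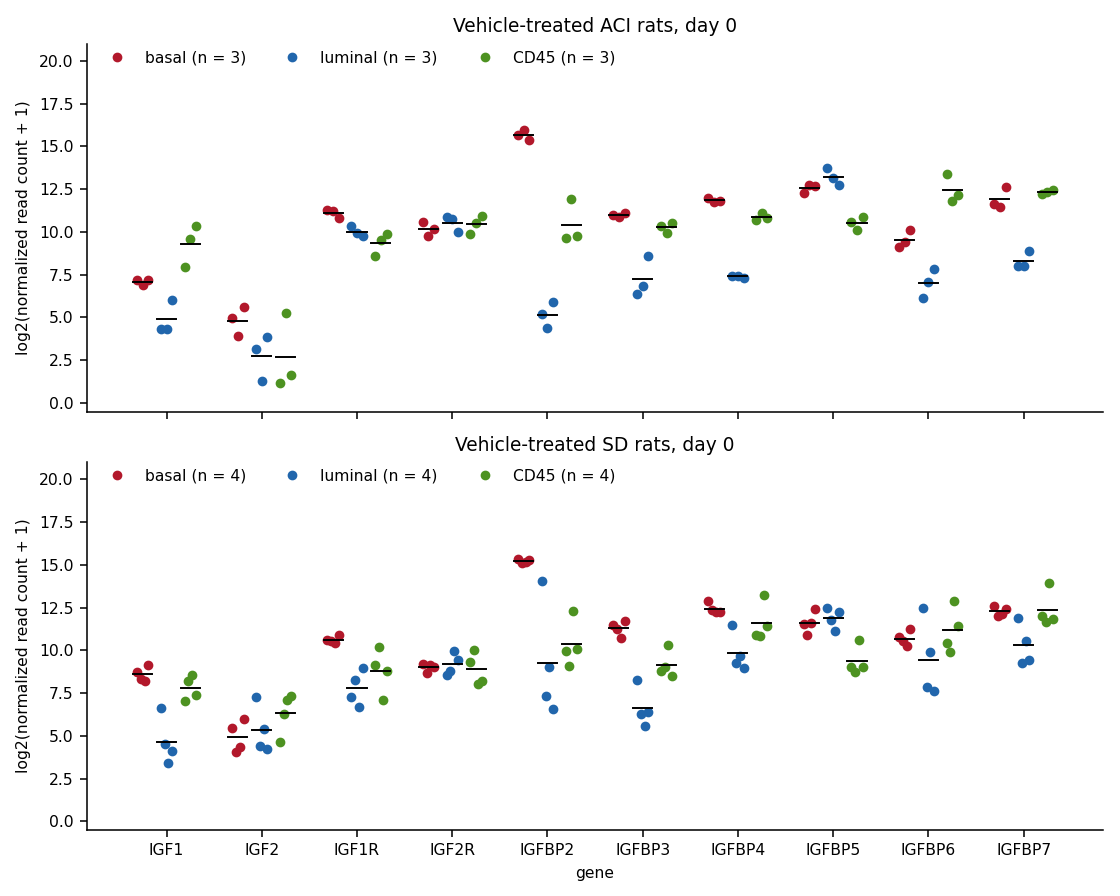
Normalized read counts (log2 scale, y axis) of the 10 IGF genes (x axis) in basal, luminal and CD45+ fractions of vehicle rats at day 0, ACI above and SD below. Each point is a rat and each bar the mean of the log2 values. IGFBP2 shows the widest gap between basal and luminal cells in ACI rats, and 1 SD luminal point, rat C6N at 16861, lies close to the basal ones.

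The whole-gland libraries placed the members in 13 named cell classes of vehicle SD rats. Cells were clustered without the 10 members and named from fixed markers, and 5.42% of the 103524 cells stayed unnamed. The values are in CPM, the UMIs (unique RNA molecules counted) of a gene summed per rat and class and scaled to the same CPM total in each, and are given as the lowest, median and highest of 3 rats. Adipocyte-like cells came from 1 rat (21 cells). The classes are described below without a test.

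The ligands were highest outside the epithelium. IGF1 was 169, 216 and 253 CPM in fibroblast-like cells, 168, 181 and 315 in macrophage-like cells and 46.9, 55.9 and 90.1 in mural-like cells, and 525 in the adipocyte-like cells of the single rat. The ranges of fibroblast-like and macrophage-like cells overlapped, and both lay above mural-like cells. Basal-like, luminal progenitor (LP)-like and mature luminal (ML)-like cells had at most 3.34 CPM in any vehicle rat. IGF2 was highest in endothelium-like cells (26, 35.1 and 52.9), followed by lymphatic endothelium-like (13.9, 18.0 and 38.0) and mural-like cells (11, 15.1 and 32.2), and these ranges overlapped. ML-like cells had 0.519, 1.49 and 4.99 CPM of IGF2, which overlapped B-like cells at 0.109, 1.37 and 2.83.

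Of the receptors, IGF1R was 16.4, 25.5 and 29.3 in basal-like cells and 0.993, 44.4 and 46.8 in T and NK-like cells, in which the low value was that of vehicle rat 4. IGF2R was 84.2, 97.2 and 98 in fibroblast-like cells and 77.8, 86.5 and 92.4 in ML-like cells, and these overlapped. IGF2R was thus found across classes, with medians between 19.6 and 97.2 over the named classes that held 3 rats.

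Several binding proteins were highest in a single class. IGFBP2 was 1656, 1788 and 1792 CPM in basal-like cells, followed by fibroblast-like cells at 43.7, 121 and 159, whereas LP-like cells had 2.72, 3.68 and 6.51 and ML-like cells 0.332, 4.04 and 5.43. IGFBP6 was 1789, 1889 and 2031 in fibroblast-like cells and 179, 220 and 228 in mural-like cells. Neither gene's leading class overlapped the next one.

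IGFBP3 was 342, 366 and 530 in fibroblast-like, 182, 192 and 197 in endothelium-like and 54.5, 106.6 and 124 in basal-like cells, without overlap. IGFBP4 was 935, 1080.1 and 1265 in mural-like cells and 434, 855 and 867 in fibroblast-like cells. IGFBP7 was 6903, 7072 and 10631 in mural-like cells and 5704, 6033 and 9393 in endothelium-like cells, which overlapped, against 159, 229 and 230 in basal-like and 21.5, 27.3 and 28.5 in LP-like cells.

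IGFBP5 differed in being shared by stroma and epithelium. It was 784, 1399 and 2589 in fibroblast-like cells, 766, 1152 and 1588 in LP-like cells, 814, 970.3 and 1947 in mural-like cells and 477, 831 and 1302 in basal-like cells, with overlap between all neighbours in this order. ML-like cells had 206, 401 and 440.

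**Figure D2:**
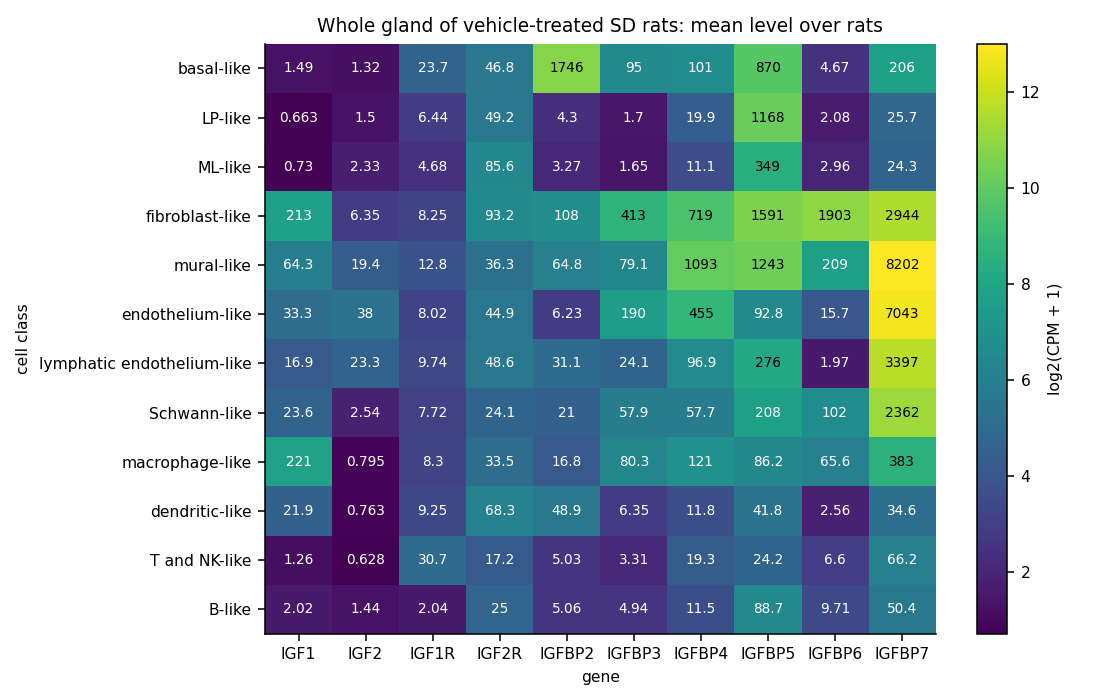
Mean CPM over 3 vehicle SD rats for each IGF gene (x axis) in each cell class with at least 2 rats (y axis), with colour on a log2(CPM + 1) scale. IGFBP2 stands out in basal-like cells, IGFBP6 in fibroblast-like cells and IGFBP7 in mural-like and endothelium-like cells, and IGF1 is low in all 3 epithelial classes.

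Genes most like each member across the 13 classes were taken among 5753 genes by Pearson's r of log2(CPM + 1). This describes classes of the same 3 rats, except that adipocyte-like cells came from 1 rat. Each r is the highest over these genes, and the level that chance gives was not computed. IGFBP2 was most like COL17A1 (r = 0.951), KRT15 (0.926) and KRT5 (0.925), all known from basal epithelium. IGFBP6 was most like WFDC1 (0.979), HAS1 (0.962) and LUM (0.961), IGFBP4 like BGN (0.963), IGFBP7 like TFPI2 (0.960), IGFBP3 like SPARC (0.935) and IGFBP5 like HSPB8 (0.915). IGF1 was most like MNDA (0.950), itself highest in adipocyte-like cells, and IGF2 like HOXD9 (0.903). The receptors had the weakest likeness, with UCHL1 for IGF1R (0.824) and TMED3 for IGF2R (0.80).

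Next, TGFBRi and vehicle were compared in the bulk fractions, to ask how short inhibition of TGFβ signaling changed the IGF genes. In 32 comparisons, limma made 7 calls on members, of which 6 were lower after TGFBRi, whereas 0.588% of all gene tests were called in either direction. The calls lay in ACI basal cells at day 0, ACI CD45+ cells at day 0, adult virgin basal cells and adult parous luminal cells. DESeq2 called 19 members in the same comparisons, and the 7 were among them. In the other 28 comparisons limma called no member, including all 3 fractions of young SD rats, all fractions of ACI rats at days 7 and 14, the NMU and E2 models and both tumor fractions.

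In ACI basal cells at day 0, IGFBP4 fell from 3987, 3429 and 3625 in vehicle rats to 1027, 542 and 246 in TGFBRi rats. The groups did not overlap, and the log2 difference was -2.83 (SE 0.48, adjusted p = 0.00857). Among all genes of this comparison, 0.837% were called lower, and the median log2 difference was -0.12 over the members and 0.30 over all genes. On day 7 its values were 3536, 3509 and 5306 in vehicle and 1989, 3588 and 2827 in TGFBRi rats, and on day 14 they were 2252, 6484 and 5700 against 6682, 6320 and 3628, with no call at either time. The day 0 effect was not shown to differ from the later ones, since the tests of those differences made no call for IGFBP4. Sorted single cells of ACI rats at day 0 (below) did not show a fall of this size. In their basal-like cells IGFBP4 was not called and the arms overlapped (log2 fold change -0.17, SE 0.23, edgeR adjusted p = 0.638). It was not called in basal-like cells of sorted or whole-gland SD rats either. Bulk and single-cell libraries carry different animal names, and the difference between them was not tested.

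IGFBP2 in bulk ACI basal cells at day 0 was 52240, 64085 and 42990 in vehicle and 3104, 16380 and 12857 in TGFBRi rats. The groups did not overlap, yet the difference was just short of a call (values below). With TMM scaling in limma, 2 members instead of 1 were called in this comparison. Keratin, actin and other basal markers (7 of 7 listed) summed to 110914 to 178615 in vehicle and 41186 to 84933 in TGFBRi basal libraries, and the depth of 2 of the 3 TGFBRi libraries was 4194912 and 6562769 reads. The part of these in the IGFBP4 result was not tested, and in sorted bulk samples fewer cells of a type and less RNA per cell cannot be told apart. Of the other pathway genes, 2 of 38 rose, IGF2BP2 (log2 difference 2.34) and IGFBP1 (4.31), and none fell.

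In ACI CD45+ cells at day 0, IGFBP2, IGFBP4 and IGFBP7 were lower after TGFBRi, where 2.01% of all genes were called lower. The median log2 difference was -1.22 over the members and -0.04 over all genes. IGFBP2 was 786, 3835 and 860 in vehicle and 17.1, 31.8 and 28.7 in TGFBRi rats (log2 difference -5.72, SE 0.57, adjusted p = 7.73e-05). IGFBP4 was 1632, 2220 and 1839 against 222, 592 and 429 (log2 difference -2.29, SE 0.41, adjusted p = 0.00979). For both genes, every TGFBRi rat lay below every vehicle rat, and the same held for IGFBP7, with 4680, 5088 and 5722 against 794, 593 and 989 (log2 difference -2.73, SE 0.42, adjusted p = 0.00290). IGFBP4 was lost without LD10R (adjusted p = 0.0558) or LD3R (0.0526), and with a fit of only these groups (0.0820).

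Markers of other cells fell in the same CD45+ libraries. The summed level of the basal list (7 of 7 listed) was 2691 to 10060 in vehicle and 84.5 to 175 in TGFBRi rats, with 3 of its markers at 0 in 1 TGFBRi library. The fibroblast list (7 of 7) was 364633 to 738756 against 21687 to 148804, and the mural list (6 of 6) was 2378 to 4288 against 321 to 756. The leukocyte list (4 of 4) was 91361 to 158103 against 91817 to 114485. The part of basal, fibroblast and mural RNA in the 3 results was not tested. Among other pathway genes 4 of 38 fell, GHR (log2 difference -2.39), HTRA1 (-2.52), EIF4EBP1 (-1.16) and MAPK3 (-1.13). With TMM scaling in limma, 183 genes were called higher and 255 lower here, instead of 123 and 297, and the same 3 members were lower.

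The effect on IGFBP2 in CD45+ cells differed between days 0 and 14. On day 14 its normalized read counts were 2768, 3677 and 2031 in vehicle and 2282, 1556 and 4025 in TGFBRi rats, so the groups overlapped. On day 7 they were 5193, 5321 and 4029 against 1080, 1683 and 385, with no overlap and no call. The TGFBRi effect on day 0 minus that on day 14 was -5.55 on the log2 scale (SE 0.81, adjusted p = 0.0126), where 0.176% of all genes were called lower. On day 14 the basal list summed to 6432 to 7819 in vehicle and 3112 to 11086 in TGFBRi rats. Over the 11 tests of a difference between effects, this was the only member called by limma, against 0.108% of all gene tests. DESeq2 called 9 members over these tests, and limma with a filter on a mean of at least 10 called 3. The IGFBP2 call was lost without LD11L (adjusted p = 0.0533) or LD12R (0.0679).

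In basal cells of adult virgin ACI rats, IGFBP5 and IGF2R were lower after TGFBRi, where 6.23% of all genes were called lower and the median log2 difference was -0.45 over the members and -0.25 over all genes. IGFBP5 was 18126, 18431, 20210 and 20470 in vehicle and 7475, 6778, 7910 and 2039 in TGFBRi rats (log2 difference -1.85, SE 0.38, adjusted p = 0.00859). IGF2R was 1462, 1078, 1241 and 1389 against 744, 923, 266 and 549 (log2 difference -1.19, SE 0.30, adjusted p = 0.0241). Neither gene overlapped between arms, and with a fit of only these 2 groups the adjusted p was 0.0515 for IGFBP5 and 0.129 for IGF2R. IGF2R was also lost without C_N1N, C_N2N or C_N2R (adjusted p = 0.0526 to 0.0607). Genes with at least 1 read numbered 12123 to 12561 in vehicle and 10151 to 11434 in TGFBRi libraries, and the part of this was not tested. The mural list (6 of 6 listed) summed to 50744 to 95138 in vehicle and 18400 to 66830 in TGFBRi rats, and its part was not tested. Of the other pathway genes 5 of 36 fell and none rose, among them STC2 (log2 difference -4.31), the adaptor GRB10 (-3.97) and the kinase MTOR (-1.62).

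In luminal cells of adult parous ACI rats, IGF2R rose after TGFBRi. It was 769, 860, 498 and 466 in vehicle and 2058, 1884, 2520 and 2049 in TGFBRi rats, without overlap (log2 difference 1.76, SE 0.21, adjusted p = 0.00182). It was 1 of only 2 genes called higher in this comparison (0.014% of genes). Genes with at least 1 read numbered 13188, 13259, 11641 and 11466 in the same vehicle rats, the last 2 of which had the lowest IGF2R, and 13109 to 13878 in TGFBRi rats. Reads off genes were 23.1% to 27% and 25.2% to 35.2%, and the part of these was not tested. In virgin rats IGF2R luminal values were 1042, 1348, 1064 and 1094 in vehicle and 1324, 1539, 1591 and 1946 in TGFBRi rats, with no call, and the test of the difference between virgin and parous effects made no call. The median over the members was 0.49 against 0.13 over all genes, and 0 of 37 other pathway genes were called.

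**Figure D3:**
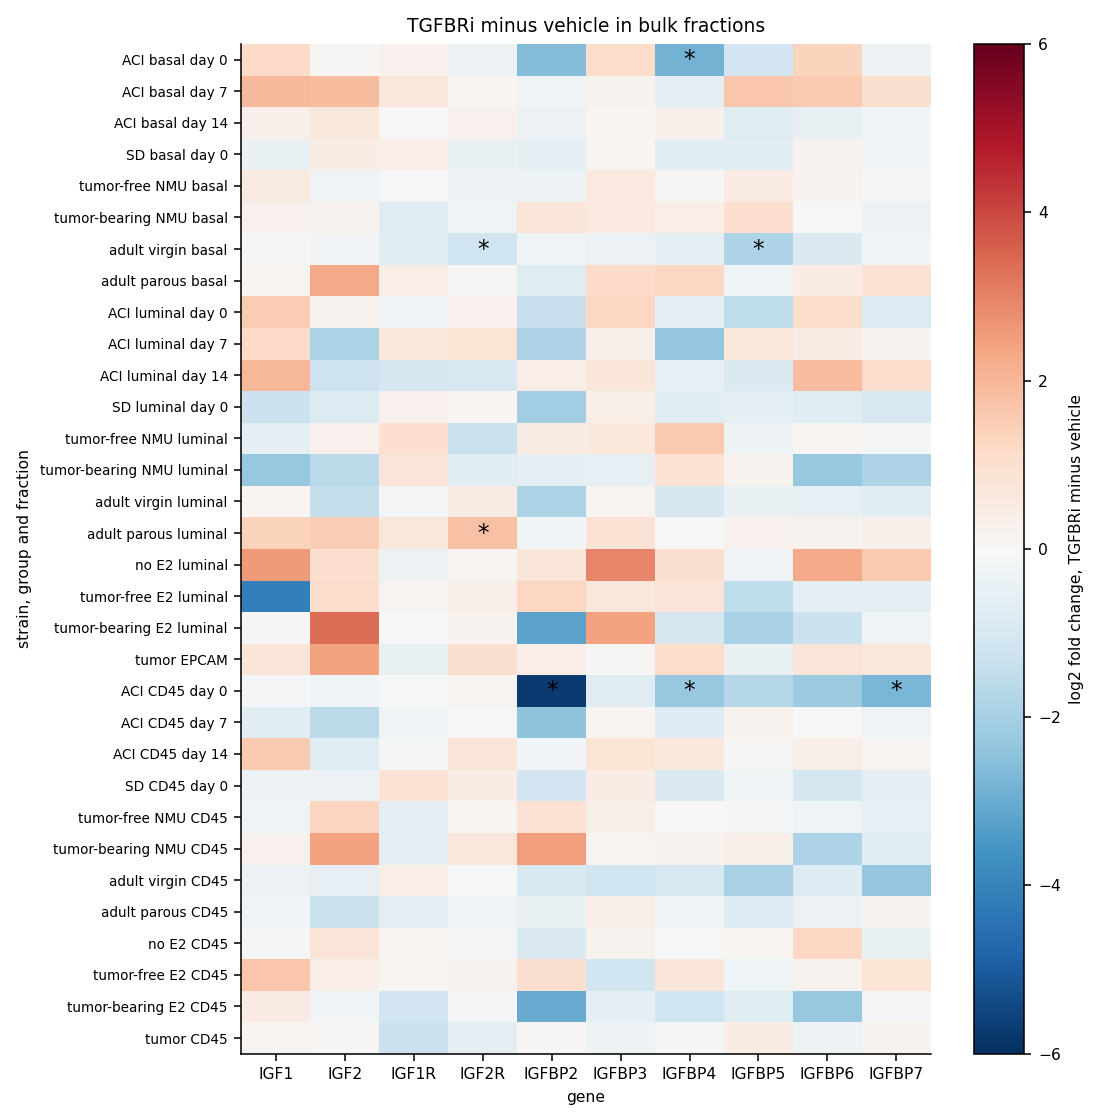
Log2 fold change (TGFBRi minus vehicle, colour from -6 to 6) of each IGF gene (x axis) in the 32 bulk comparisons (y axis). Asterisks mark the 7 calls, and the darkest is IGFBP2 in ACI CD45+ cells at day 0, at -5.72.

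The same question was asked in single cells of day 0 glands by summing UMIs per rat and class and testing them with edgeR's quasi-likelihood test at an adjusted p of at most 0.1. Across the 6 sorted classes 17 calls fell on members, where 25.4% of all gene tests were called. Across 12 whole-gland classes there were also 17 calls, where 21.9% were called. Per member tested (numbers by class below), calls were rarer than over all genes in whole glands and more frequent in sorted classes. So in most classes the members' counts have to be read against a background of many called genes.

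The scaling moved the balance of called genes in single cells. The main test scaled the UMIs by edgeR's TMM factors, and with the library size alone the median log2 fold change of all genes shifted by -0.22 to -0.41 in sorted classes. The share of called genes that were higher after TGFBRi then went from 46.3% to 17.8% in ACI basal-like, from 53.7% to 9.13% in ACI LP-like and from 52.4% to 15.0% in ACI ML-like cells. In SD rats it went from 50.1% to 8.57% in basal-like, from 51.2% to 12.8% in LP-like and from 51.1% to 19.1% in ML-like cells. In whole glands the median shifted by -0.03 to 0.25, and the share went from 48.5% to 74.3% in fibroblast-like, from 44.1% to 69% in endothelium-like, from 44.4% to 65.7% in mural-like, from 23.8% to 76.7% in macrophage-like, from 48.1% to 60.4% in ML-like and from 34.4% to 52.4% in Schwann-like cells. Lymphatic endothelium-like (42.4% to 57.2%) and dendritic-like cells (36.8% to 78.6%) moved likewise, and the other 4 whole-gland classes moved by less than 10 points. No called member changed direction. Of the 34 calls below, 4 were lost with the library size alone: IGFBP6 in ACI basal-like cells (adjusted p = 0.263), IGFBP7 in fibroblast-like cells (0.116), and IGF2 (0.1003) and IGFBP6 (0.244) in endothelium-like cells.

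Vehicle and TGFBRi cells of a sorted class lay mostly in different clusters, so the values below compare unlike mixtures of clusters. Of ACI basal-like cells, 41.2% of vehicle and 3.68% of TGFBRi cells were in a cluster led by CAMK4, CCN2 and GAS1, against 1.60% and 42.3% in one led by HMOX1, SESN2 and PTX3. In ACI LP-like cells the main vehicle cluster, led by KIT, PDK4 and TF, held 83.3% and 11.4%, and in ML-like cells that led by SLC6A14, LEFTY1 and NRP1 held 65.8% and 25.3%. In SD rats 73.4% of vehicle and 20.4% of TGFBRi basal-like cells were in a cluster led by MME, LTBP2 and CXCL14. The main vehicle clusters of SD LP-like cells (led by KIT, PREX2 and PLIN2) and ML-like cells (led by BCHE, TPH1 and BCO2) held 81% against 5.40% and 91.5% against 18.6%. In whole glands this was so for basal-like cells, with 67.2% of vehicle and 1.77% of TGFBRi cells in a cluster led by FST, NRG1 and KRT17. The arms shared clusters more in macrophage-like cells, with 65% and 43.8% in a cluster led by PF4, CCL4 and F13A1. LP-like cells of whole glands had 66.8% and 51.1% in their main vehicle cluster.

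In the SD basal sort the naming rule also left out a cluster of 2567 cells, led by MYH11, IL17B and GAS1, whose best-scoring marker list was the basal one. The basal-like class thus held 217 to 399 cells per vehicle rat and 264 to 3553 per TGFBRi rat, and with the unnamed cells of the basal sort added (after the data were seen) it held 540 to 1879 and 487 to 3584. Values with these cells are given beside the SD basal-like results of IGFBP2, IGFBP3 and IGFBP5, and counts and medians over members are without them.

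IGFBP5 was called in most epithelial classes, but in opposite directions in the 2 kinds of library. In sorted ACI rats it fell in basal-like cells from 3516, 3618 and 5246 CPM in vehicle rats to 2498, 1865 and 2007 in TGFBRi rats (log2 fold change -0.72, SE 0.16, adjusted p = 0.00566). In ACI LP-like cells it fell from 4530, 4911 and 5285 to 1639, 1936 and 2095 (-1.08, SE 0.19, adjusted p = 0.0164). In ACI ML-like cells it fell from 75.7, 30.2 and 37.7 to 12.8, 11.4 and 16.4 (-1.61, SE 0.41, adjusted p = 0.0540). The arms did not overlap in any of the 3 classes, and the ML-like call was lost without ACI12, ACI15 or ACI16 (adjusted p = 0.112 to 0.211).

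In sorted SD LP-like cells IGFBP5 fell from 4327, 5942 and 4802 CPM to 898, 1658 and 2737 (lowest, median and highest of 6 TGFBRi rats), with a log2 fold change of -1.20 (SE 0.33, adjusted p = 0.0402). In SD basal-like cells it was 1284, 1138 and 3236 against 514, 732 and 976 (-0.89, SE 0.32, adjusted p = 0.0984). With the unnamed cells of the basal sort it was 3824, 2651 and 6833 against 515 to 978, without overlap (-2.10, SE 0.28, adjusted p = 0.00231). In SD ML-like cells IGFBP5 had a log2 fold change of 2.11 (SE 1.27), which was not called. The basal-like call without the unnamed cells rested on vehicle rat SD3, without which the log2 fold change was -0.25 (adjusted p = 0.656), and it was lost without any 1 of SD1, SD9, SD10, SD11, SD12 and SD13 as well (0.103 to 0.168). The LP-like call was lost without any 1 of the 3 vehicle rats SD1, SD2 and SD3 (0.128 to 0.148).

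In whole glands IGFBP5 rose instead. In LP-like cells it was 1588, 766 and 1152 CPM in vehicle rats and 1628, 3127 and 5050 (lowest, median and highest) in the 6 TGFBRi rats (log2 fold change 1.46, SE 0.46, adjusted p = 0.0610). In ML-like cells it was 440, 401 and 206 against 482, 1057 and 1766 (1.52, SE 0.42, adjusted p = 0.0304), and in basal-like cells 477, 831 and 1302 against 923, 2296 and 4577 (1.503, SE 0.58, adjusted p = 0.0777). The arms did not overlap in LP-like and ML-like cells and overlapped in basal-like cells. The LP-like call was lost without veh2, veh4 or ly2 (adjusted p = 0.102 to 0.176) and the basal-like call without veh1, veh2, ly1 or ly14 (0.101 to 0.213). The sorted libraries were made with a 3′ kit and the whole-gland ones with a 5′ kit from different rats, so kit, sorting and rats cannot be told apart, nor can strain where ACI rats are set beside whole glands.

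IGF1R and IGF2R fell together in sorted SD luminal cells. In LP-like cells IGF1R was 16.6, 17.3 and 13.8 CPM in vehicle rats and 1.24, 3.68 and 5.99 (lowest, median and highest) in TGFBRi rats (log2 fold change -1.77, SE 0.36, adjusted p = 0.0297), and IGF2R was 93.3, 114 and 75.6 against 27.2, 36.3 and 58 (-0.86, SE 0.26, adjusted p = 0.0508). In ML-like cells IGF1R was 2.27, 2.16 and 2.54 against 0.293, 0.388 and 0.651, on 4 to 14 UMIs per vehicle rat and 2 to 6 per TGFBRi rat (-2.13, SE 0.42, adjusted p = 0.0101). IGF2R there was 140, 161 and 136 against 57.2, 67.2 and 122 (-0.57, SE 0.21, adjusted p = 0.0662). None of these 4 pairs of groups overlapped. With only 2 of the 3 vehicle rats left, IGF1R in LP-like cells was lost without SD1 or SD3 (adjusted p = 0.128 to 0.148), IGF2R in LP-like cells without any 1 of them (0.129 to 0.165) and IGF2R in ML-like cells without any 1 of them or SD11, SD12 or SD13 (0.115 to 0.182), whereas IGF1R in ML-like cells kept its call in each case.

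In sorted ACI rats each receptor was called in 1 class. IGF1R fell in ML-like cells from 4.24, 3.36 and 2.80 CPM to 1.17, 0.904 and 1.42 (-1.37, SE 0.37, adjusted p = 0.0169), on 12 to 32 UMIs per vehicle and 5 to 8 per TGFBRi rat. IGF2R fell in basal-like cells from 90.3, 93.2 and 91.8 to 63.6, 66.1 and 58.2 (-0.32, SE 0.09, adjusted p = 0.0169). Neither gene overlapped between arms.

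In whole glands IGF2R rose in 3 classes. In mural-like cells it was 34.5, 33.2 and 41.1 CPM in vehicle rats and 53.3, 60.9 and 72.4 (lowest, median and highest) in TGFBRi rats (log2 fold change 0.61, SE 0.16, adjusted p = 0.0136). In ML-like cells it was 77.8, 86.5 and 92.4 against 103.2, 117 and 130 (0.36, SE 0.10, adjusted p = 0.0238), and in fibroblast-like cells 84.2, 97.2 and 98 against 125, 144 and 151 (0.38, SE 0.14, adjusted p = 0.0608). No TGFBRi rat fell within the vehicle range in these classes, and IGF1R was not called in any whole-gland class. The fibroblast-like call was lost without veh1, veh2, ly11 or ly14 (adjusted p = 0.108 to 0.275).

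IGFBP2 rose in sorted basal-like single cells of both strains, whereas in bulk basal cells at day 0 limma did not call it and its mean log2 difference was below 0. Whole-gland basal-like cells gave no call for it either (log2 fold change 0.06, SE 0.20, edgeR adjusted p = 0.833). In bulk SD basal cells it was 41136, 35044, 37294 and 40060 in vehicle and 39947, 30039, 19241 and 20186 in TGFBRi rats, which overlapped (log2 difference -0.55, SE 0.23, adjusted p = 0.980), and bulk ACI values are given above (-2.59, SE 0.69, adjusted p = 0.0518). Bulk and single-cell libraries carry different animal names, and this difference was not tested. In single cells of SD rats it went from 2090, 2624 and 1621 CPM to 2688, 3288 and 3658 (lowest, median and highest; log2 fold change 1.05, SE 0.22, adjusted p = 0.0162). In ACI rats it went from 2045, 2325 and 1913 to 3020, 2351 and 2357 (0.53, SE 0.13, adjusted p = 0.00796). The arms did not overlap in either strain, though 2 ACI TGFBRi rats were close to the highest vehicle rat. The SD call was lost without SD1 (adjusted p = 0.105) or SD3 (0.129). With the unnamed cells of the basal sort, SD vehicle rats had 2157, 2746 and 1569 and TGFBRi rats 2707 to 3656, so that the arms overlapped (1.01, SE 0.22, adjusted p = 0.0145). In SD LP-like cells IGFBP2 was also called higher (4.42, SE 1.47, adjusted p = 0.0628), on 0 to 1 UMIs per vehicle rat and at 0 to 4.01 CPM in TGFBRi rats, so the arms overlapped and the fold change is uncertain. It was lost without any 1 of the 3 vehicle rats (0.155 to 0.199).

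IGFBP3 moved in opposite directions in sorted ACI and whole-gland SD cells. In sorted ACI basal-like cells it rose from 35.4, 22.5 and 23.4 CPM to 50.2, 46.6 and 39.2 (log2 fold change 0.95, SE 0.17, adjusted p = 0.00216). In whole-gland basal-like cells it fell from 54.5, 106.6 and 124 to 11.9, 31.8 and 47.8 (lowest, median and highest; -1.65, SE 0.36, adjusted p = 0.00594). Neither pair of arms overlapped. In sorted SD basal-like cells IGFBP3 was not called (log2 fold change 0.67, SE 0.38, adjusted p = 0.262), nor with the unnamed cells of the basal sort (0.78, SE 0.35, adjusted p = 0.123).

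In whole glands IGFBP3 was also lower in endothelium-like, macrophage-like, Schwann-like and ML-like cells. In endothelium-like cells it was 197, 192 and 182 CPM against 101.8, 129 and 173 (-0.76, SE 0.15, adjusted p = 0.00235), and in Schwann-like cells 44.1, 51.3 and 78.2 against 5.66, 15.8 and 31.9 (-1.67, SE 0.33, adjusted p = 0.00499). In macrophage-like cells it was 114, 57.5 and 69 against 31.7, 42.3 and 65.1 (-1.09, SE 0.24, adjusted p = 0.0329), with 0.116 without veh1. In ML-like cells it was 1.73, 1.07 and 2.16 against 0, 0.316 and 0.688 (-2.49, SE 0.60, adjusted p = 0.00990), on 9 to 30 and 0 to 4 UMIs.

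IGFBP7 fell in basal-like, ML-like and fibroblast-like cells of whole glands and was not called in LP-like cells. In basal-like cells it was 230, 159 and 229 CPM against 59.2, 100.5 and 136 (lowest, median and highest; -1.07, SE 0.25, adjusted p = 0.00622), in ML-like cells 17.8, 19 and 36 against 5.16, 8.10 and 13.6 (-1.51, SE 0.29, adjusted p = 0.00357), and in fibroblast-like cells 3898, 2437 and 2497 against 2110, 2372 and 2557 (-0.53, SE 0.16, adjusted p = 0.0269). The first 2 did not overlap between arms and the third did, and the fibroblast-like call was lost without veh1 (adjusted p = 0.142). IGFBP6 fell in ML-like cells from 3.23, 2.49 and 3.15 to 0.343, 0.987 and 2.06 (-1.41, SE 0.39, adjusted p = 0.0196).

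IGFBP3, IGFBP6 and IGFBP7 were low in ML-like cells, whereas the same genes stood at 366, 1889 and 2497 CPM (medians) in fibroblast-like cells of vehicle rats. The number of such stromal cells per library differed between arms, with 845 to 2607 fibroblast-like, 579 to 1513 mural-like and 1312 to 2283 endothelium-like cells in vehicle rats and 542 to 1328, 117 to 571 and 364 to 1396 in TGFBRi rats. The part of free RNA in these results was not tested.

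The remaining calls were of IGF2, IGFBP6 and IGFBP4. IGF2, the ligand, fell in endothelium-like cells from 26, 35.1 and 52.9 CPM to 18.0, 28.0 and 32.8 (log2 fold change -0.73, SE 0.22, adjusted p = 0.0259), with overlap between arms, and IGFBP6 there was 9.38, 16.4 and 21.4 against 5.94 to 18.5, with overlap (-0.74, SE 0.31, adjusted p = 0.0937), a call that was lost without veh2, veh4, ly1, ly2, ly4, ly6 or ly14 (0.123 to 0.346). In sorted ACI basal-like cells IGFBP6 was 8.94, 10.0 and 7.54 against 12.8, 11.4 and 7.71 (0.51, SE 0.18, adjusted p = 0.0502), lost without ACI9, ACI12 or ACI15 (0.105 to 0.252). In sorted SD LP-like cells IGFBP4 was 3.66, 4.59 and 3.66 against 4.05, 9.74 and 20.6 (1.82, SE 0.50, adjusted p = 0.0402), lost without any 1 of the 3 vehicle rats (0.124 to 0.156). IGF1 was not called in any class of the sorted or whole-gland libraries in which it was tested. In the sorted libraries only basal-like cells were tested, on 0 to 4 UMIs per rat (0 to 0.475 CPM), too few to show a change. Fibroblast-like cells of the sorted libraries had 55.4 to 581 CPM of IGF1 and were not tested.

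By class, the counts against their backgrounds were as follows. In sorted ACI cells, 5 of 10 members tested were called in basal-like cells (34.5% of genes in either direction), 1 of 8 was lower in LP-like cells (7.49% lower) and 2 of 5 were lower in ML-like cells (12.5% lower). In sorted SD cells, 2 of 10 were called in basal-like cells (14.7%), 5 of 8 in LP-like cells (28.6%) and 2 of 9 were lower in ML-like cells (15.6% lower). Members that were not tested had under 10 UMIs in all rats together.

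In whole glands, all 10 members were tested in each class but dendritic-like cells (9). Of these, 3 were called in basal-like cells (44.4% of genes), 5 in ML-like cells (32.3%) and 2 in fibroblast-like cells (30.2%). In endothelium-like cells 3 were lower (19.5% lower), in LP-like and mural-like cells 1 was higher (10.5% and 12.2% higher), and in macrophage-like and Schwann-like cells 1 was lower (3.15% and 5.33% lower). B-like, T and NK-like, dendritic-like and lymphatic endothelium-like cells had none by edgeR, whereas DESeq2 called 1 each in B-like and lymphatic endothelium-like cells.

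The median log2 fold change over the members tested was -0.03 in sorted ACI basal-like, 0.41 in LP-like and -0.22 in ML-like cells, beside -0.04, -0.01 and -0.01 over all genes. In sorted SD cells it was 0.60, 1.35 and 1.28, beside 0.09, 0.07 and 0.03. The SD medians were above 0 in LP-like and ML-like cells, where 3 of 5 and 2 of 2 calls were lower. The members that were not called there had log2 fold changes of 0.27 to 7.84, with SEs of 0.80 to 5.10. Vehicle rats had 0 UMIs of IGFBP3 in SD LP-like and ML-like cells and of IGF2 in SD basal-like cells. These members passed the UMI filter only through TGFBRi rats, so their fold changes had to be above 0. The SD medians are thus not read as a shift of the members. In whole glands it was 0.02 in basal-like, 0.20 in LP-like, -0.81 in ML-like, 0.14 in fibroblast-like, -0.17 in endothelium-like and 0.09 in mural-like cells, beside 0.05, 0.05, 0.03, 0.04, -0.02 and 0.01 over all genes.

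Of the other pathway genes, 1 to 7 rose and 5 to 12 fell in each sorted class, of 32 to 34 tested. In whole-gland classes with a called member, 0 to 10 of 29 to 35 rose and 0 to 8 fell. Over all genes, 25.4% of tests were called in the 6 sorted and 21.9% in the 12 whole-gland classes. PIK3R1, the regulatory subunit of PI3K, was lower in all 6 sorted classes (log2 fold change -0.57 to -1.20) and higher in 6 whole-gland classes (0.37 to 1.31), as was IGFBP5 where it was called. Other pathway genes went the opposite way. EIF4EBP1 was higher in sorted LP-like cells (0.80 in ACI and 1.05 in SD rats) and lower in whole-gland basal-like (-1.04) and ML-like cells (-1.19).

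To ask whether parity changed the members, parous and virgin adult ACI rats were compared within arms. In basal cells of TGFBRi rats, 5 of 10 members were higher in parous rats, where 8.79% of all genes were called higher and the median log2 difference was 1.32 over the members and 0.24 over all genes. In vehicle rats and in luminal and CD45+ cells no member was called, so that 5 calls were made in 6 comparisons, against 1.97% of all gene tests. Both comparisons within TGFBRi or within virgin rats use the same virgin TGFBRi libraries, which were also those that stood lower in the comparison with vehicle above.

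IGFBP5 was 23100, 30422, 18885 and 23211 in parous TGFBRi rats and 7475, 6778, 7910 and 2039 in virgin TGFBRi rats (log2 difference 2.14, SE 0.38, adjusted p = 0.00284). IGF1R was 7873, 8608, 7909 and 12446 against 3959, 3614, 3555 and 1618 (1.58, SE 0.29, adjusted p = 0.00294), and IGF2R was 1254, 1283, 1309 and 1630 against 744, 923, 266 and 549 (1.27, SE 0.30, adjusted p = 0.0135). For these 3 genes the groups did not overlap. The vehicle values, 16481 to 47403 for IGFBP5, 4902 to 10131 for IGF1R and 912 to 1711 for IGF2R in parous rats, overlapped those of parous TGFBRi rats.

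IGFBP4 was 20923, 18947, 10638 and 5392 in parous against 6792, 3507, 4576 and 4695 in virgin TGFBRi rats (1.37, SE 0.38, adjusted p = 0.0301), and IGFBP7 was 25998, 23254, 18745 and 10436 against 12015, 7164, 9130 and 7157 (1.10, SE 0.31, adjusted p = 0.0330). Both overlapped between the groups. With a fit of only the 2 groups IGF2R, IGFBP4 and IGFBP7 were no longer called (adjusted p = 0.0804, 0.0899 and 0.0797). IGFBP4 and IGFBP7 were also lost without any 1 of D_N1R, D_N2N, D_N2R, D_P1N, D_P1R or D_P2N (adjusted p = 0.0527 to 0.0940 and 0.0572 to 0.0978). The mural list summed to 87517 to 110699 in parous and 18400 to 66830 in virgin TGFBRi rats, and genes with at least 1 read numbered 12138 to 12575 and 10151 to 11434. Their part was not tested. The effects of TGFBRi in virgin and parous rats were not shown to differ for any member. Among other pathway genes 10 of 36 were higher in parous rats, among them GRB10 (log2 difference 4.79), STC2 (4.54), IRS1 (3.85) and IRS2 (1.98), and EIF4EBP1 was lower (-1.45).

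**Figure D4:**
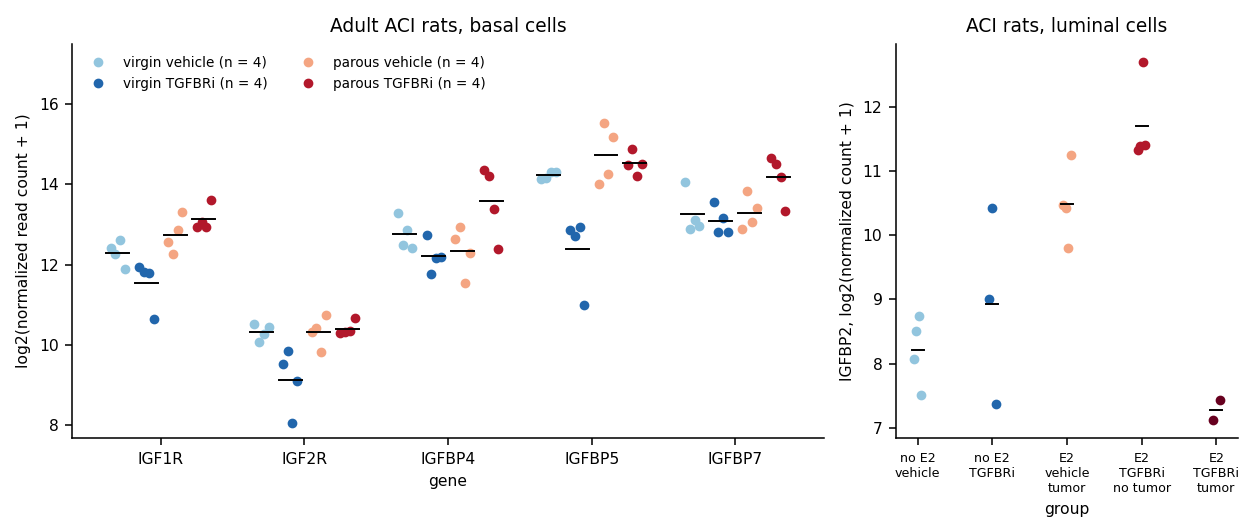
Left, normalized read counts (log2 scale) of 5 IGF genes in basal cells of adult ACI rats by parity and arm, 4 rats in each. Right, IGFBP2 in luminal cells of the ACI estrogen model by E2, arm and tumor. Points are rats and bars means of the log2 values. Virgin TGFBRi rats are lowest for IGFBP5, and for IGF2R all lie below the other rats except that D_N1R (923) is above parous vehicle rat C_P2N (912), and the 2 tumor-bearing TGFBRi rats have 138 and 172 for IGFBP2.

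E2 was compared with no E2 to ask how the hormone changed the members. IGFBP2 was the only one called, higher with E2 in luminal cells of vehicle rats and of tumor-free TGFBRi rats, which made 2 calls in 4 comparisons against 2.98% of all gene tests. In vehicle rats it was 267, 362, 427 and 182 without E2 and 1415, 1367, 889 and 2426 with E2, without overlap (log2 difference 2.27, SE 0.51, adjusted p = 0.0283). Here 0.846% of all genes were called higher, the median over the members was 0.81 and over all genes 0, and all E2 rats carried tumors. The call was lost without A4-1, A4-18, A4-27, A4-37 or A4-38 (adjusted p = 0.0530 to 0.0858).

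In TGFBRi rats without tumors IGFBP2 was 511, 1370 and 164 without E2 and 2574, 2678, 6648 and 2716 with E2, again without overlap (log2 difference 2.78, SE 0.55, adjusted p = 0.00839), where 2.52% of genes were called higher. The 2 tumor-bearing TGFBRi rats with E2, which are not in this comparison, had 138 and 172. The medians were -0.97 over the members and -0.04 over all genes. The basal list (7 of 7 listed) summed to 2167 to 5761 in vehicle rats without E2, 5806 to 9562 with E2, 2608 to 3811 in TGFBRi rats without E2 and 5530 to 23753 with E2, and its part was not tested. In vehicle rats 2 of 35 other pathway genes were higher with E2, IGFALS (6.47), the third subunit of the serum IGF complex, and IRS1 (5.12), and GRB14 (-2.08) and STC2 (-5.63) were lower. In TGFBRi rats STC2 alone was called (-7.43).

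Tumor-bearing and tumor-free TGFBRi rats were then compared in glands, which gave 2 member calls in 5 comparisons, against 1.11% of all gene tests, both of them IGFBP2 and in opposite directions. In luminal cells of the estrogen model IGFBP2 was 138 and 172 in the 2 tumor-bearing rats and 2574, 2678, 6648 and 2716 in tumor-free rats (log2 difference -4.43, SE 0.62, adjusted p = 0.00908). It was 1 of 2 genes called lower (0.0147% of genes), and the call was lost with edgeR (adjusted p = 0.0756). The basal list summed to 2526 and 5808 in the tumor-bearing rats, and its part was not tested. The medians were -0.17 over the members and -0.02 over all genes.

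In basal cells of the NMU model IGFBP2 was 149528, 221875 and 140699 in tumor-bearing and 98078, 59459 and 89961 in tumor-free TGFBRi rats (log2 difference 1.05, SE 0.24, adjusted p = 0.0251), where 3.62% of genes were called higher. The groups did not overlap. Tumor-bearing vehicle rats had 115942, 92464 and 96066, between the other groups in part. The medians were 0.01 over the members and -0.24 over all genes, and the basal list summed to 498126 to 594977 in tumor-bearing and 306134 to 516848 in tumor-free TGFBRi rats. Its part was not tested. With a fit of only these groups the adjusted p was 0.0873, and it was also lost without any 1 of D1N, D1R, D2R or D3R (0.0543 to 0.0732). Among other pathway genes MAP2K1 alone was called here (-1.35), of 36, and none of 35 in the estrogen model.

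Finally, tumors were compared with the glands of the same 3 vehicle rats of the NMU model, C2N, C2R and C5R. These tables had been scaled separately, so the reads were scaled together. In EPCAM+ tumor cells against luminal gland cells, IGFBP3 and IGFBP4 were higher and IGFBP5 and IGF2 lower, 4 of 10 members against 25.1% of genes called in either direction. The median log2 difference was 0.69 over the members and 0.05 over all genes.

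IGFBP4 was 769, 1464 and 1856 in gland luminal cells and 23263, 47347 and 10482 in tumor cells (log2 difference 4.14, SE 0.61, adjusted p = 0.000170). IGFBP3 was 302, 253 and 207 against 3971, 10868 and 1399 (3.96, SE 0.84, adjusted p = 0.00302). Both were higher in the tumor of each rat. IGFBP5 was 8116, 3497 and 3037 against 913, 2183 and 424 (-2.22, SE 0.58, adjusted p = 0.00914), and IGF2 was 55.2, 115 and 83.2 against 12.2, 10.2 and 16.8 (-2.57, SE 0.86, adjusted p = 0.0349). Both were lower in the tumor of each rat. Without rat C2N the adjusted p of IGFBP5 was 0.123, without C2R that of IGFBP3 was 0.0603, and IGF2 was lost without any 1 of the 3 rats (0.0741 to 0.238).

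In the same libraries the fibroblast list (6 of 7 listed) summed to 86410 to 1056920 in EPCAM+ tumor cells and 5230 to 16418 in gland luminal cells, and the epithelium list (4 of 4) to 42356 to 99444 against 204493 to 399628. These go against the EPCAM+ label of the tumor fraction, and the part of fibroblast RNA in the IGFBP3 and IGFBP4 results was not tested. Of the other pathway genes 5 of 37 were higher, HTRA1 (3.64), PIK3R2 (3.71), TSC2 (2.496), LRP1 (2.47) and GHR (1.18), and EIF4EBP1 was lower (-3.64).

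In CD45+ cells, 6 of 10 members were lower in tumors than in glands, where 7.65% of all genes were called lower and the median log2 difference was -2.37 over the members and -0.12 over all genes. IGFBP5 was 1099, 1192 and 3977 in glands and 17.1, 34 and 24.8 in tumors (log2 difference -6.09, SE 0.55, adjusted p = 1.48e-05). IGFBP6 was 29495, 35218 and 24116 against 1258, 502 and 1146 (-5.02, SE 0.68, adjusted p = 0.000298), and IGFBP7 was 5773, 9523 and 7523 against 154, 451 and 617 (-4.41, SE 0.54, adjusted p = 0.000160). Gland and tumor values were separated for each of these 3 genes in each rat.

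IGF1R was 732, 545 and 452 in gland and 14.0, 133 and 40.0 in tumor CD45+ cells (-3.70, SE 0.85, adjusted p = 0.0105). IGFBP2 was 4199, 2221 and 2015 against 336, 1013 and 404 (-2.36, SE 0.65, adjusted p = 0.0277), and IGFBP3 was 347, 792 and 2144 against 149, 136 and 203 (-2.38, SE 0.68, adjusted p = 0.0312). These were the less stable calls: with the rat as a block the adjusted p of IGFBP3 was 0.0639, IGFBP2 was lost with edgeR (0.0508) and without any 1 of the 3 rats (0.0589 to 0.253), IGFBP3 without C2R (0.170) or C5R (0.137), and IGF1R without C2N (adjusted p = 0.120).

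The fibroblast list (6 of 7 listed) summed to 158173 to 359874 in gland and 6573 to 19567 in tumor CD45+ cells, the epithelium list (4 of 4) to 20643 to 24929 against 1143 to 2100 and the basal list (6 of 7) to 6443 to 11075 against 768 to 2101. The leukocyte list (4 of 4) was 37425 to 56571 against 78239 to 113535. The part of stromal and epithelial RNA in the gland libraries in these 6 results was not tested. Of 33 other pathway genes none was higher and 6 were lower, GHR (-7.07), H19 (-5.16), HTRA1 (-4.88), TSC1 (-3.91), LRP1 (-3.11) and AKT2 (-1.37).

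**Figure D5:**
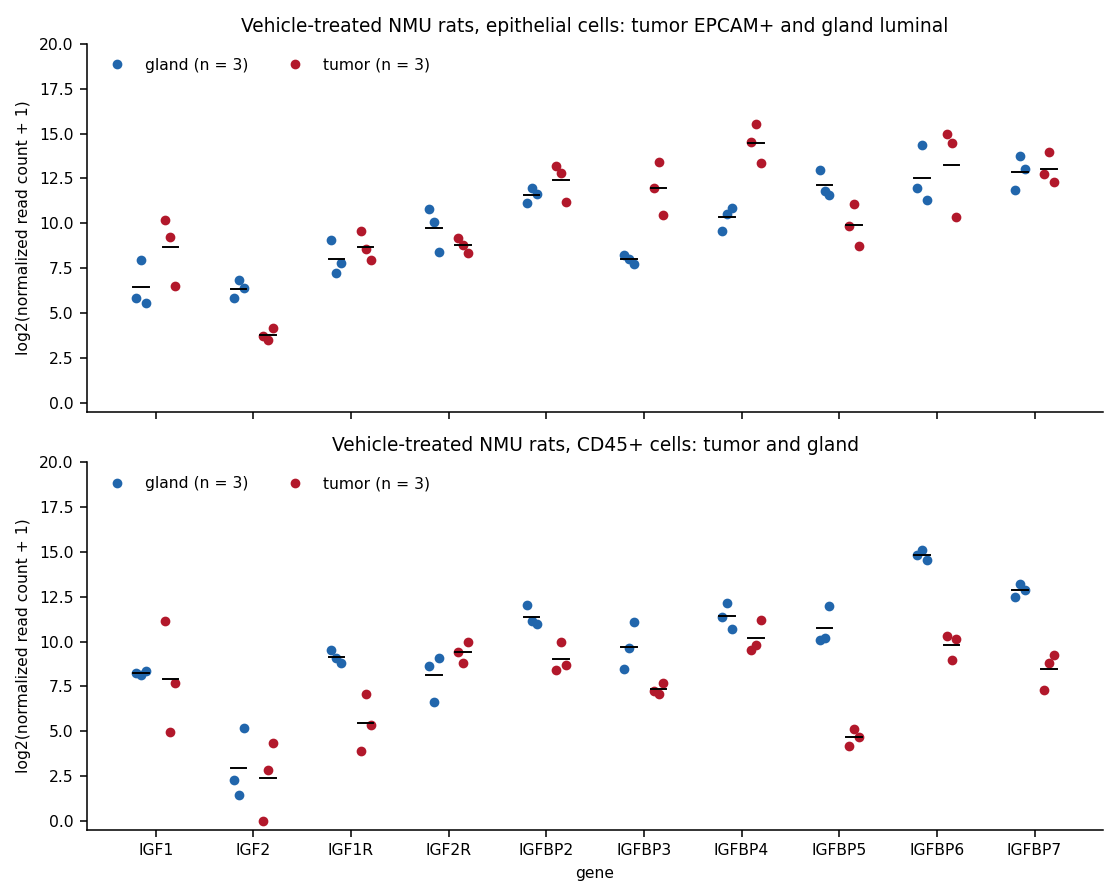
Normalized read counts (log2 scale, y axis) of the 10 IGF genes (x axis) in tumors and glands of the same 3 vehicle NMU rats, epithelial fractions above and CD45+ cells below, with reads scaled together. Points are rats and bars means of the log2 values. IGFBP4 is higher in each EPCAM+ tumor fraction and IGFBP5, IGFBP6 and IGFBP7 are lower in each tumor CD45+ fraction.

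Between TGFBRi and vehicle, neither tumor fraction had a member called. The study's secretory basal cells could not be followed with the fixed rule, basal-like cells with at least 3 of SPARCL1, ID3, S100A4 and EPAS1, which found 1 cell in sorted ACI and 11 in sorted SD libraries. A class added after the data were seen, SD cells of the basal sort with 3 of these 4 genes in any cluster, had enough cells in 2 vehicle and 6 TGFBRi rats. Of its 525 cells, 364 were mural-like, 62 unnamed, 55 fibroblast-like, 20 endothelium-like, 13 Schwann-like and 11 basal-like, so few were named basal-like here. The paper defined its secretory basal cells by clustering and saw rare EPCAM+ cells with their markers by immunofluorescence, so this class does not stand for them. IGF1 in the class was 5.28 (1 UMI) and 151 CPM (60 UMIs) in vehicle and 2.97 (3 UMIs) to 87.6 in TGFBRi rats. In mural-like cells of the sorted SD libraries IGF1 was 4.03 CPM in vehicle rat SD2 (1 UMI) and 0 to 18.5 in TGFBRi rats. In sorted SD basal-like cells it was at most 0.475, and in fibroblast-like cells 201 to 581. In the added class edgeR called 4 of 10727 genes (0.0373%), 1195 at an unadjusted p under 0.05, and no member, whereas DESeq2 called 2 members.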

How the data were processed

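Bulk libraries were mapped by the authors with STAR (2.5.1b) to rn6, counted per gene with HTSeq and normalized with DESeq2 (1.30.1), and the deposited signal is these counts divided by a size factor per library. The deposited single-cell values are UMI counts per gene and cell from Cell Ranger (4.0.0 for sorted cells or 7.0.0), processed further by the authors in Seurat (4.0.0 and 4.1.1, per the labels) into objects not used here. The deposited matrices already hold the cells left by the authors' filters: no sorted cell had a PTPRC (CD45) UMI or under 2 keratin UMIs, so cells with CD45 or without keratin UMIs are missing from the sorted data. Each bulk table was fitted over all genes that summed to 10 or more over its libraries with limma (3.58.1, trended and robust) in R 4.3.3 on log2(value + 1), Benjamini-Hochberg adjustment and a threshold of 0.05. Reads were recovered from the step between low values for edgeR (4.0.16), DESeq2 (1.42.0) and the joint scaling of tumors and glands. All values above 0 (100%) were whole reads within 0.001, also in 7 libraries whose step is close to 1. Rows that name no gene, 23.1 to 42.5% of reads in the 85 libraries that list them, were left out. Cells were clustered with scanpy (1.11.5) and leidenalg (0.10.2) without the 10 members and named from fixed markers. UMIs were summed per rat and class (at least 10 cells per rat, at least 10 UMIs per gene) and tested with edgeR's quasi-likelihood test at an adjusted p of at most 0.1. The tests were also run on simulated counts, with the same spread for all genes and independent libraries. Outlying rats and fractions of the same rat were not simulated, so that run does not bear on single calls.

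Samples were grouped by their labels. In the CD45+ fraction, LD9R is titled day 9 and labelled day 7, and was taken as day 7. Library LD2LR is described as treated and labelled vehicle, and was taken as vehicle. The 4 libraries of rat A4-15 were averaged as 1 rat, and treated SD rats described as weak or strong responders were kept as 1 group. Basal and luminal fractions, and tumors and glands, came from the same rats by the animal names in the labels, so a fit with the rat as a block was an alternative. Other alternatives were the scaling, the pseudocount, filters, the clustering resolution, doublet removal and leaving out each rat. The rule for named genes took all 10 members in every comparison. Called members are given with their values per rat (for groups of 6, the lowest and highest, mostly with the median), and the others mostly as counts. The members, lists and tests were chosen with earlier results of these data known. Intervals and tests cover the spread between these rats, and single-cell libraries shared at most 3, 7 and 284 barcodes within sorted ACI, sorted SD and whole-gland data.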

Additional observations from a re-analysis of the deposited data

Results flagged for a closer look

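Values of members called in a comparison were checked in 55 sets, each of 1 gene in a compared group of 4 rats or more. By Dixon's criterion 7 sets had 1 rat far from the others. These sets share libraries and the values were not log-transformed, so no chance rate is set beside the 7. In luminal cells of SD vehicle rats, C6N stood apart for 4 of the called members, with a gap to the next rat of 0.857 of the group's range for IGF1 (95.9 against 22 normalized reads), 0.975 for IGFBP2 (16861 against 509), 0.861 for IGFBP3 (307 against 82.2) and 0.866 for IGFBP4 (2824 against 803). IGFBP6, not called there, was also high in this rat (5576 against 194 to 959). This library also had the highest summed basal markers of its group, 64465. In basal cells of parous TGFBRi adults, D_P2R had the highest receptor levels, with 0.839 for IGF1R (12446 against 8608) and 0.854 for IGF2R (1630 against 1309). In luminal cells of tumor-free TGFBRi rats with E2, A4-24 had 0.965 for IGFBP2 (6648 against 2716).

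The TGFBRi effect on IGFBP2 in ACI CD45+ cells differed between day 0 and day 14, with a difference of -5.55 on the log2 scale by the interaction term in limma.

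Opposite directions in sorted and whole-gland libraries, with every TGFBRi rat on one side of the vehicle rats in each, were found in 8 pairs of effects. The 320 pairs examined also held sorted ACI against sorted SD cells, and bulk pairs of strain, parity and day. They are thus no denominator for the 8, and the share over all genes was not counted. In LP-like cells the log2 fold change of IGFBP5 was -1.08 in sorted ACI and -1.20 in sorted SD cells and 1.46 in whole glands, and that of IGF2R was -0.33, -0.86 and 0.19, of which only the sorted SD value was called. In ML-like cells IGFBP5 had -1.61 in sorted ACI cells and 1.52 in whole glands, while in sorted SD cells it had 2.11 and was not called, and IGF2R had -0.22 (not called) in sorted ACI, -0.57 in sorted SD and 0.36 in whole-gland cells. In basal-like cells IGFBP3 had 0.95 in sorted ACI cells and -1.65 in whole glands. The difference between the kinds of library was not tested, because they share no rats and differ in kit and sorting, and 5 of the 8 pairs also differ in strain (sorted ACI against whole-gland SD rats).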

How the results depend on the processing

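Of the 38 member calls in bulk, DESeq2, limma on log2 CPM with TMM scaling, 2 filters and pseudocounts of 0.5 and 5 each kept all 38, and no call reversed under any alternative. edgeR lost 3: IGF1 between ACI basal and luminal cells (adjusted p = 0.0887), IGFBP2 between tumor-bearing and tumor-free rats of the E2 model (0.0756) and IGFBP2 in tumor CD45+ cells (0.0508). A fit of only the groups compared lost 7, and leaving out 1 rat at a time lost 50 of 506 repeats. Of the 34 single-cell calls, DESeq2, a Leiden resolution of 0.4, a minimum of 30 cells per rat and a minimum of 50 UMIs kept all, and the library size alone lost the 4 named above. Leaving out 1 rat at a time lost the single-cell call in 55 repeats and kept it in 227. No filter on low counts lost IGFBP5 in SD (adjusted p = 0.101) and whole-gland basal-like cells (0.106), IGFBP6 in endothelium-like (0.104) and IGF2R in fibroblast-like cells (0.122). Removal of the 6% of cells with the highest doublet scores lost IGFBP5 in SD basal-like (0.113), IGFBP3 in macrophage-like (0.235) and IGFBP3 in Schwann-like cells (0.103). Cells from their own sort only, and the unnamed cells of the basal sort counted as basal-like (both added after the data were seen), kept all 17 sorted calls, and the latter called 4055 genes instead of 2034 in SD basal-like cells. The causes were not tested.

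The number of members called moved by more than 1.5 times as follows. DESeq2 called 19 members instead of 7 for TGFBRi in bulk (9406 genes instead of 2626), 9 instead of 1 for differences between effects (2004 genes instead of 172), 6 instead of 2 for tumor-bearing rats (1908 genes instead of 754), 4 instead of 2 for E2 (3561 genes instead of 1614) and 2 instead of 0 in the added, mostly mural-like class. edgeR called 1 for tumor-bearing rats. A fit of only the groups compared called 8 instead of 5 between ACI basal and luminal cells (5714 genes instead of 3241), 1 instead of 2 for tumor-bearing rats (in NMU basal cells 92 genes higher and 9 lower instead of 482 and 261) and 2 instead of 5 for parity (399 genes instead of 1631). A filter on a mean of at least 10 called 3 for differences between effects, and the 4 libraries of A4-15 as separate samples called 4 for E2 (3013 genes). In sorted SD basal-like cells, a resolution of 0.4 called 6 members instead of 2 (5037 genes instead of 2034), and the library size alone called 3453 genes. In macrophage-like cells these settings called 1142 and 801 genes instead of 496, and DESeq2 called 564 instead of 893 in Schwann-like cells.

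Without each rat in turn, the members called were 4 to 6 between ACI basal and luminal cells, 5 to 7 in SD rats, 6 to 9 for TGFBRi in bulk, 0 to 3 for differences between effects, 1 to 3 for tumor-bearing rats, 3 to 6 for parity, 1 to 3 for E2, 2 to 4 in tumor EPCAM+ and 4 to 6 in tumor CD45+ cells, 9 to 18 in sorted single cells, 14 to 28 in whole glands and 0 in the added class. The sorted count of 9 was reached without SD1 or SD3, and the whole-gland count of 28 without veh4.

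The rat as a replicate block kept 20 of 21 calls between fractions and between tumors and glands. Animal names of adult rats and numbers of whole-gland rats did not consistently pair the samples. Same-numbered deviations correlated at -0.566 to 0.338 over the adult pairs and -0.468 to 0.552 over the whole-gland pairs. With these names or numbers as a block, IGF2R in parous luminal cells had an adjusted p of 0.0765, and whole-gland rats 1, 2 and 4 kept 10 of 17 calls, with 23 members called. TMM scaling shifted the median of all genes by 0.105 in tumor-free NMU luminal cells and 0.175 in tumor EPCAM+ cells. Requiring all 4 secretory basal genes gave too few cells to test. Genes with few UMIs per rat, such as IGF1R in ML-like cells, are limited by depth.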

Other observations

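In ACI basal cells of days 7 and 14, 4 libraries (LD2LR, LD6R, LD11L and LD20L) had IGF1R at 339 to 498 normalized reads, where the other 8 had 1195 to 3619. The 4 came from both arms and both days. In luminal cells of adult virgin vehicle rats, C_N1N had 9410 normalized reads of IGFBP2 against 729 to 917 in the other 3 rats. In whole glands, vehicle rat 4 had 0.993 CPM of IGF1R in T and NK-like cells against 44.4 and 46.8 in the other vehicle rats.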
